A study of Homo sapiens with 4 samples.

Results

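The keratins described here are 9 of the 47251 genes in the table: KRT7, KRT8, KRT10, KRT17, KRT18, KRT19, KRT20, KRT23 and KRT80. They were chosen by gene name under the heading of keratins of simple epithelium, although not all of them are typical of it. RNA was sequenced from AGS, a human gastric adenocarcinoma cell line, in 4 libraries. In 2 libraries the cells carried an shRNA against MFAP2, a glycoprotein of extracellular microfibrils (sh-MFAP2, the knockdown libraries), and in the other 2 they carried a scrambled shRNA (control). Both groups were lines made stable by lentiviral infection and puromycin selection, and the labels name a single MFAP2 shRNA. The labels do not say whether the libraries of a group came from separate cultures. Every p value here thus compares these libraries alone, and the spread between them may be technical. The limma test also pools part of that spread over genes. The comparison asked whether keratin RNA changed when MFAP2 was silenced. Whole cultures were sequenced, so fewer expressing cells and less RNA per cell cannot be told apart.

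Keratins are the intermediate filament proteins of epithelia. Every filament is built from pairs of an acidic type I and a basic type II keratin, so a cell needs both kinds. KRT8 (type II) with KRT18 (type I) is the founding pair of single-layered, or simple, epithelia such as the stomach lining, where KRT19 also takes the type I place. KRT7 marks ductal and glandular epithelium and KRT20 the gut surface, whereas KRT10 and KRT17 are better known from skin and KRT80 from a range of epithelia. Filaments are tied to desmosomes through desmoplakin and to hemidesmosomes through plectin and integrin α6β4, which spreads mechanical load across an epithelial sheet.

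Values were FPKM, fragments per kilobase of exon scaled to the size of the library. Inferred depth was 54900000 to 75200000 reads per library. MFAP2 RNA read 0 in both knockdown libraries and 0.0116 and 0.0138 FPKM in the controls, too low to check the labels. The libraries were epithelial by EPCAM, an epithelial surface glycoprotein, at 193 to 210 FPKM, while CDH1, which encodes E-cadherin and defines adherent epithelium, was at 0.584 and 0.853 FPKM in the knockdown libraries and only 1.25 and 1.15 FPKM in the controls. Of the other epithelial markers, CLDN7, a claudin, was at 26.0 and 34.2 against 46.1 and 48.2 FPKM (limma adjusted p = 0.371, unadjusted 0.0224), and ESRP1, an epithelial splicing regulator, at 21.1 and 22.8 against 26.2 and 27.3 FPKM (limma adjusted p = 0.415). These 3 markers were thus below both controls in both knockdown libraries, and their part in the results was not tested. Of all genes tested, 31.4% lay below both controls in this way. CLDN4, the last epithelial marker, was high in sh-MFAP2 library 1 alone, at 47.1 FPKM. Its values elsewhere were 0.0151 FPKM (sh-MFAP2 library 2), 0.291 FPKM (control library 1) and 0.551 FPKM (control library 2), so its groups overlapped. The 4 endothelial markers summed to 0.0145 to 0.0380 FPKM, and PTPRC, the pan-leukocyte marker, did not exceed 0.0175 FPKM. The 7 fibroblast markers summed to 2.35 and 2.12 FPKM in the knockdown libraries and to 4.39 and 4.96 FPKM in the controls, nearly all of it COL1A1, whose part in the results below was not tested. The 5 leukocyte markers summed to 88.7 and 582 FPKM in the knockdown libraries and 97.1 and 376 FPKM in control libraries 1 and 2, mostly from LYZ, which encodes lysozyme and which gastric glands also make. CD68, a lysosomal protein of macrophages on the same list, was at 3.13 and 3.12 FPKM in the knockdown libraries, below its 7.85 and 7.20 FPKM in both controls.

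The keratin RNA of these cells came almost wholly from 3 simple-epithelial genes. KRT8 ranked at number 12 among all genes by mean FPKM, KRT18 at 16 and KRT19 at 89. The 9 genes summed to 1791 and 1750 FPKM in the knockdown libraries and to 1820 and 1575 FPKM in the controls, and KRT8 alone held 37.9% to 51.0% of that sum. KRT7 and KRT20, the other keratins of glandular and intestinal epithelium, were below 1 FPKM in every library by gene value. Summed over its transcripts KRT7 was at 1.89 and 2.63 FPKM in the knockdown libraries and 2.17 and 2.34 FPKM in the controls, 3.32 times its gene value on average. The name simple epithelium therefore described the abundant keratins, and its markers KRT7 and KRT20 were scarce.

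**Figure D1:**
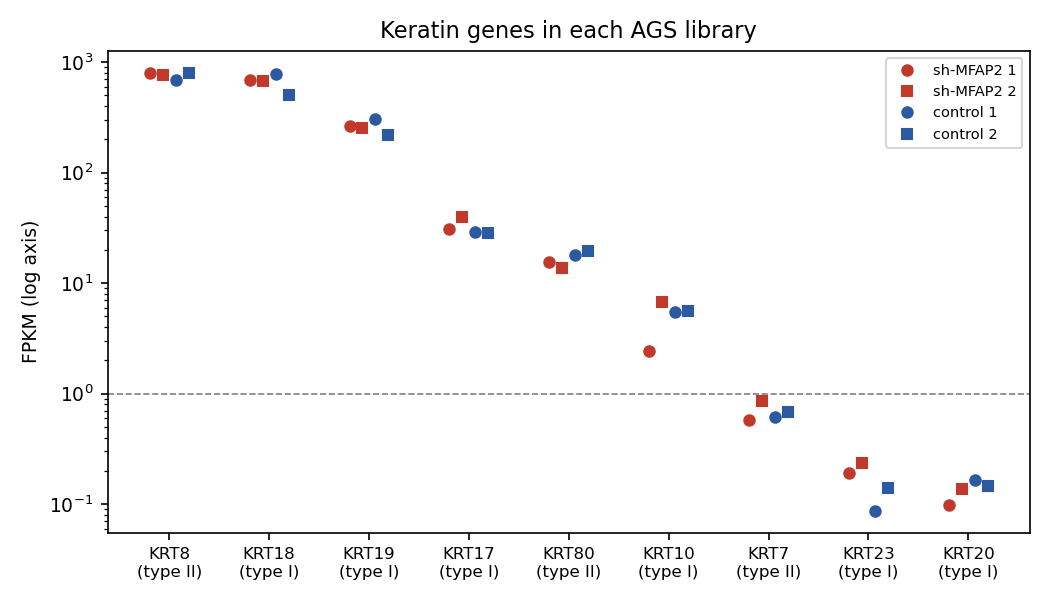
FPKM of the 9 keratin genes (log axis, ordered by mean) in each library; red marks sh-MFAP2, blue control, circles replicate 1 and squares replicate 2, and the dashed line is the 1 FPKM limit for testing. Levels run from KRT8 at 690 to 803 FPKM down to KRT20 at 0.0970 to 0.165 FPKM, and the colours intermingle for most genes.

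KRT8, the type II partner, stood at 792 and 760 FPKM in the knockdown libraries and at 690 and 803 FPKM in the controls (776 ± 22.8 against 746 ± 79.96, mean ± SD, n = 2 each). The sh-MFAP2 values lay between the 2 control values by this gene value. The log2 fold change of FPKM + 1 was 0.06 (SE 0.13, limma adjusted p = 0.857), with a 95% interval from -0.32 to 0.44, which spans 0.803 to 1.35 times the control level. Summed over its transcripts KRT8 was at 2854 and 2770 FPKM in the knockdown libraries, above the 2515 and 2598 FPKM of the controls. The log2 fold change on that scale was 0.14 (SE 0.14, limma adjusted p = 0.662).

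KRT18, its type I partner, was at 684 and 674 FPKM in the knockdown libraries and at 774 and 501 FPKM in control libraries (679 ± 7.09 against 638 ± 194). The controls spread far more widely than the knockdown libraries and enclosed them. The log2 fold change was 0.13 (SE 0.25, limma adjusted p = 0.841, 95% interval -0.59 to 0.84).

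KRT19, the smallest type I keratin and one that lacks most of the tail domain, was at 265 and 255 FPKM in the knockdown libraries and at 303 and 217 FPKM in control libraries. Again the controls enclosed the knockdown libraries, and control library 2 was the lowest of the 4. The log2 fold change was 0.02 (SE 0.20, limma adjusted p = 0.978, 95% interval -0.56 to 0.59).

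KRT17, a type I keratin induced in injured and proliferating epithelium, was at 31.1 and 39.7 FPKM in the knockdown libraries and at 29.3 and 28.5 FPKM in control libraries. Both knockdown libraries were above both controls. The log2 fold change of 0.28 did not pass the test (SE 0.16, limma adjusted p = 0.519, unadjusted 0.162, 95% interval -0.18 to 0.73).

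KRT80, a type II keratin, was at 15.6 and 13.8 FPKM in the knockdown libraries and at 17.8 and 19.7 FPKM in control libraries. Both knockdown libraries were below both controls. The log2 fold change was -0.33 (SE 0.13, limma adjusted p = 0.415, unadjusted 0.0622, 95% interval -0.69 to 0.03), the member nearest to the threshold among those tested.

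KRT10, the type I keratin of suprabasal epidermis, was at 2.42 and 6.74 FPKM in the knockdown libraries and at 5.44 and 5.56 FPKM in control libraries. Sh-MFAP2 library 1 was low and its replicate was the highest of the 4, so the groups overlapped. The log2 fold change was -0.34 (SE 0.44, limma adjusted p = 0.750, 95% interval -1.59 to 0.92), the widest interval of the members, and it was 0.25 without sh-MFAP2 library 1. Its usual type II partner in skin, KRT1, was listed at 0 in all 4 libraries.

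The remaining 3 genes did not reach the mean of 1 FPKM required for testing. KRT7 was at 0.574 and 0.848 FPKM in the knockdown libraries and at 0.618 and 0.674 FPKM in control libraries, with the groups overlapping. Its span on chr12 overlaps those of KRT7-AS and the hair keratin KRT86, and that of KRT10 on chr17 overlaps TMEM99. KRT23, a type I keratin reported from gastrointestinal tumour lines, was at 0.191 and 0.234 FPKM in the knockdown libraries and at 0.0868 and 0.141 FPKM in control libraries, or an inferred 33.8, 37.2, 14.95 and 30.8 reads in that order. KRT20 was at 0.0970 and 0.138 FPKM in the knockdown libraries and at 0.165 and 0.145 FPKM in control libraries, from an inferred 10.9 to 20.1 reads. KRT23 was thus higher and KRT20 lower in both knockdown libraries. When all genes were fitted without the limit, KRT23 had a log2 fold change of 0.12 (limma adjusted p = 0.533, unadjusted 0.0459), on a scale where the added 1 shrinks the change of so low a gene. In the same fit KRT20 had a log2 fold change of -0.05 (limma adjusted p = 0.732).

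Of the 9 members, 6 were tested and 0 were called at limma p under 0.01 with adjusted p under 0.05, where 0.273% of all 9873 genes tested were called. At an unadjusted p under 0.05 the count of members was also 0, against 12.3% of all genes. By gene value KRT17 was the 1 tested member with both knockdown libraries above both controls, against 17.5% of all genes. KRT80 was the 1 with both below, against 31.4%. From summed transcripts KRT8, and not KRT17, was the 1 above both controls, where 1880 of all 10787 genes tested were. The median log2 fold change of the 6 was 0.04, beside -0.05 over all genes tested. Without control library 2 the members' median was -0.20.

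In the order of levels by gene value, KRT8 and KRT18 did not separate: KRT8 was the higher in 3 of 4 libraries and the ranges overlapped. KRT18 to KRT19, KRT19 to KRT17, KRT17 to KRT80, KRT80 to KRT10, KRT10 to KRT7 and KRT7 to KRT23 were each apart in all 4 libraries. KRT23 and KRT20, at the bottom, overlapped and kept their order in 2 of 4 libraries. Summed over transcripts the order differed in part. KRT8, at 2515 to 2854 FPKM, was then apart from KRT18, at 959 to 1574 FPKM. The ranges of KRT10 and KRT7 overlapped on that scale, at 2.42 to 6.74 and 1.89 to 2.63 FPKM.

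The size of the gap between KRT8 and KRT18 depended on the length by which reads were divided. The gene value is per base of every annotated exon of the gene, 6881 bases for KRT8 and 3218 for KRT18, whereas KRT8-201, the usual KRT8 mRNA, has 1882 bases and KRT18-201 has 1562. Summed over its transcripts KRT8 had 3.53 times its gene value on average and KRT18 1.99 times. The KRT8 to KRT18 ratio was 1.16 and 1.13 in the knockdown libraries and 0.891 and 1.60 in control libraries from gene FPKM, and 2.07, 2.10, 1.60 and 2.71 in that order from summed transcripts. On both scales the controls enclosed the knockdown libraries.

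**Figure D2:**
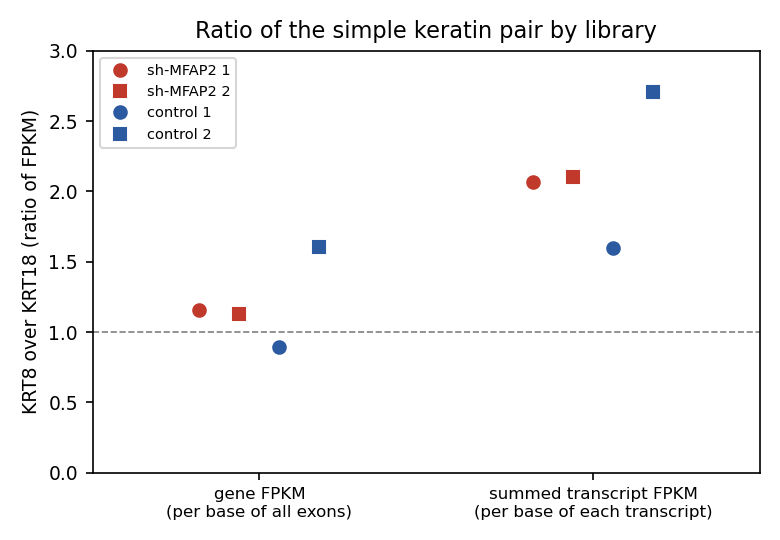
Ratio of KRT8 to KRT18 FPKM in each library (colours and symbols for group and replicate as in the key), from the gene values on the left and the summed transcript values on the right; the dashed line marks equal values. Control library 1 is the lowest and control library 2 the highest on both scales, at 0.891 and 1.60 on the left and 1.60 and 2.71 on the right.

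Taking all 9 genes, type II over type I FPKM was 0.822 and 0.794 in the knockdown libraries and 0.636 and 1.09 in control libraries. The log2 difference of -0.05 was below the 0.39 SD within groups (exact permutation test, two-sided, p = 1, where 2 libraries against 2 cannot give a p below 0.3333). From summed transcripts the ratio was 1.53, 1.53, 1.18 and 1.90, so type II RNA exceeded type I in all 4 libraries on that scale, whereas from gene FPKM type I exceeded type II in 3 of the 4. Within type I, KRT19 over KRT18 was 0.388 and 0.378 in the knockdown libraries and 0.391 and 0.434 in control libraries. Those groups were apart by a narrow margin, at the smallest p possible (exact permutation test, two-sided, p = 0.3333), and from summed transcripts they overlapped.

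KRT18 and KRT19 also moved together across the libraries. With each gene centred on its own mean, KRT19 was the 13th nearest to KRT18 of 3584 genes averaging 10 FPKM or more, with a root mean square difference of 0.08 on the log2 scale over 4 libraries. The 3 nearest to KRT18 were NFATC2IP, PYURF and OGFOD1. KRT8, the partner of KRT18 in the filament, ranked 2010 by the same measure. The 3 genes nearest to KRT8 were GLTSCR2, ANXA11 and RBM38, and KRT18 ranked 2699 from it. The 4 libraries share only 2 conditions and their depths, so these distances are descriptions.

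The transcript table showed what the gene values hid. It held 63 transcripts of the members, and the 30 that averaged 1 FPKM or more were tested. None was called (0, where 0% of the 22312 transcripts tested were called), and 0 had an unadjusted limma p under 0.05, against 7.64% of all. In 9 of the 30 the groups did not overlap, 6 higher and 3 lower in the knockdown libraries, against 42.7% of all transcripts. Within single libraries, however, the value of KRT8, KRT18 and KRT17 was placed on quite different transcripts.

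The sequences below show where the competing transcripts begin to differ at these sites. Only the first bases past each exon are given, and other differences between the transcripts are not shown. Each pair starts with the last 15 bases of an exon in lower case and continues in capitals with the next 15 bases, either of the following exon (spliced) or of the intron that stays in (retained). They are read from GENCODE 29 transcripts on GRCh38, 5′ to 3′ on the gene's strand. The KRT8 intron lies at chr12:52900684-52901158 (minus strand, 475 bases, between exons 4 and 5 of KRT8-201), the KRT17 intron at chr17:41621755-41622354 (minus strand, 600 bases, between exons 3 and 4 of KRT17-201) and the KRT18 introns at chr12:52950411-52950749 (plus strand, 339 bases, exons 2 and 3 of KRT18-201) and chr12:52952343-52952721 (plus strand, 379 bases, exons 6 and 7). All 4 lie within the coding region, begin with GT and end with AG.
KRT8-201 spliced: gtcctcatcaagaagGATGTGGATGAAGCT
KRT8-213 retained: gtcctcatcaagaagGTGAGGGAGTCTCCC
KRT17-201 spliced: aagaaccacgaggagGAGATGAACGCCCTG
KRT17-204 retained: aagaaccacgaggagGTGAGGTGGCTGGGG
KRT18-201 spliced, exons 2 and 3: tgactttagagtcaaGTATGAGACAGAGCT
KRT18-206 retained, after exon 2: tgactttagagtcaaGTAAGTTTGGGGGCT
KRT18-201 spliced, exons 6 and 7: tggcgaggactttaaTCTTGGTGATGCCTT
KRT18-206 retained, after exon 6: tggcgaggactttaaGTGAGTGGGGCTCTC

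The coding transcript KRT8-201 held 89.6% and 93.8% of the summed KRT8 FPKM in the knockdown libraries, 94.7% in control library 1 and 6.58% in control library 2. In that last library the retained-intron transcript KRT8-213 held 54.6%, against 2.82% to 5.64% in the others. In FPKM, KRT8-213 was at 161 and 96.3 in the knockdown libraries and at 70.9 and 1419 in control libraries. One control library thus stood apart from the other 3, and the controls did not resemble each other. All retained-intron transcripts of KRT8 together held 9.53%, 5.37%, 4.53% and 73.7% in the same order. KRT8-201 was at 2559 and 2599 FPKM in the knockdown libraries and at 2382 and 171 FPKM in control libraries, a log2 fold change of 2.01 that rests on control library 2 (SE 1.40, limma adjusted p = 0.726), while the gene value of KRT8 was the highest there.

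KRT18 split by replicate number and not by group. Its coding transcript KRT18-201 held 89.5% and 15.3% in sh-MFAP2 libraries 1 and 2, and 92.8% and 23.4% in control libraries 1 and 2. In both replicate 2 libraries KRT18-202, which has the same 1290 coding bases but starts at chr12 position 52948871 and not 52948964, held 35.7% (sh-MFAP2) and 25.7% (control), against 0.484% and 0.367% in the replicate 1 libraries. The retained-intron transcript KRT18-206 held 8.38%, 30.0%, 5.60% and 31.1% in sh-MFAP2 1, sh-MFAP2 2, control 1 and control 2. Leukocyte-list LYZ was also higher in both replicate 2 libraries, at 579 and 369 FPKM against 85.5 and 89.3 FPKM, and its part in the result was not tested.

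KRT17 departed in yet another library. KRT17-201 held 50.5% in sh-MFAP2 library 1 and 94.8% to 95.3% in the other 3, and the retained-intron transcript KRT17-204 held 48.7% there against 3.63% to 4.69% elsewhere. The 2 groups therefore did not separate at KRT17-201, at 23.9 and 62.9 FPKM in the knockdown libraries and 46.1 and 44.6 FPKM in control libraries (log2 fold change -0.22, SE 0.52, limma adjusted p = 0.915), a direction opposite to that of the KRT17 gene value. KRT19 showed none of this: KRT19-201 held most of its value in every library and its retained-intron transcripts at most 1.44%. KRT80-202 was the leading KRT80 transcript in all 4, at 10.4 and 11.2 FPKM in the knockdown libraries and 14.4 and 14.8 FPKM in control libraries (log2 fold change -0.40, SE 0.16, limma adjusted p = 0.677).

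**Figure D3:**
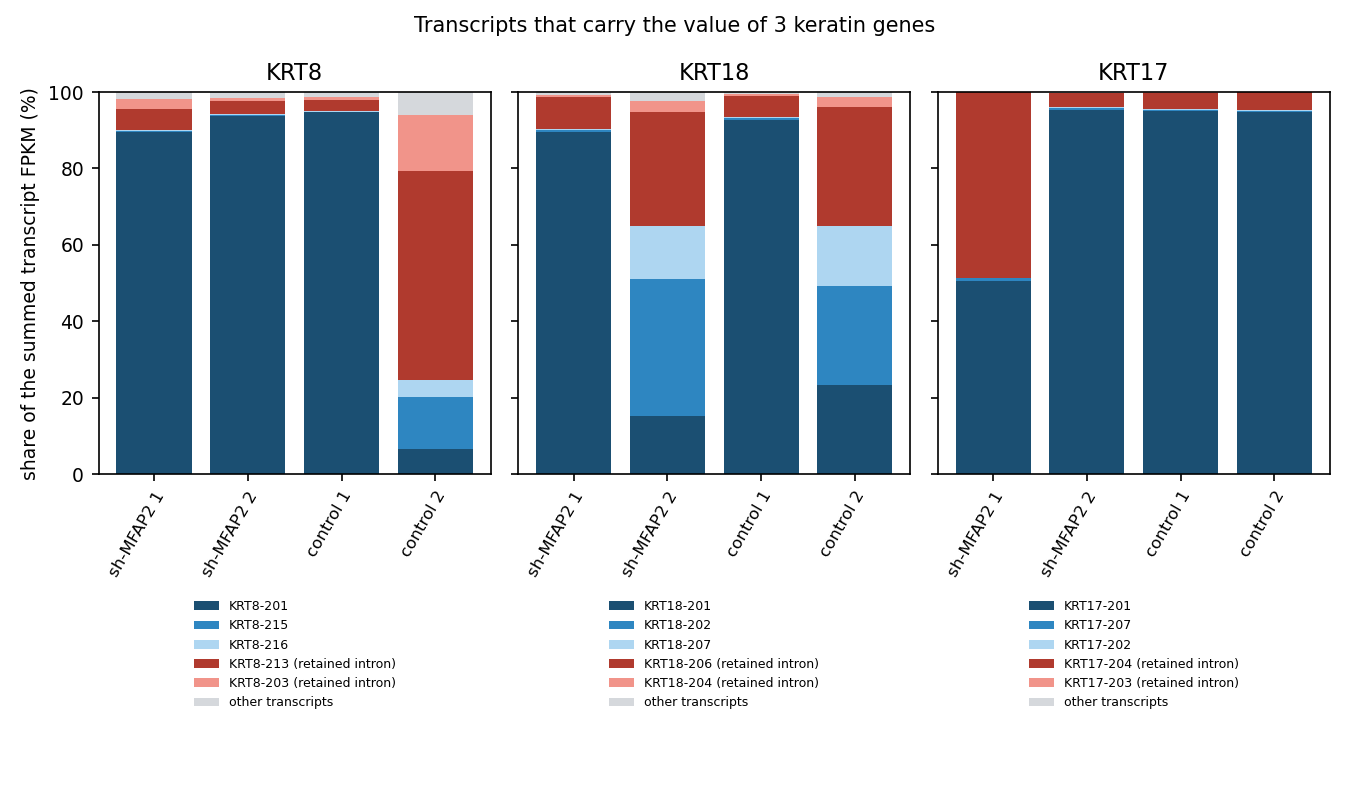
Share of the summed transcript FPKM (%) held by the leading coding (blue shades) and retained-intron (red shades) transcripts of KRT8, KRT18 and KRT17, 1 bar per library. KRT8 departs in control library 2 (54.6% on KRT8-213), KRT18 in both replicate 2 libraries (30.0% and 31.1% on KRT18-206) and KRT17 in sh-MFAP2 library 1 (48.7% on KRT17-204).

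Such shifts were uncommon but not particular to keratins. Among 3397 genes that averaged 10 FPKM or more and had several transcripts, the leading transcript was the same in all 4 libraries in 82.7%, and in 11.8%, which include KRT8, a single library differed. The largest change in a transcript's share was 88.1 percentage points for KRT8, 77.5 for KRT18 and 45.1 for KRT17, beside a median of 9.58 over those genes. A range at least as large was seen in 0.559%, 1.30% and 9.24% of them. For KRT19 it was 0.981 points and for KRT80 12.9. Retained-intron transcripts held a median of 1.69% to 2.17% per gene in the 4 libraries over 2146 genes, with no library far from the rest. Whether reads or the estimate of transcript shares set these values was not tested.

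KRT8 and KRT18 also lie next to each other. KRT8 occupies chr12:52897187-52949954 on the minus strand and KRT18 chr12:52948871-52952901 on the plus strand, and the first exon of the coding transcript KRT8-216, at chr12:52949456-52949842, shares 135 and 38 bases with exons of KRT18. Whether strand was kept in the libraries is not given in the sources used here, so reads there cannot be assigned to one gene with certainty. KRT8-216 was at 3.86 and 3.80 FPKM in the knockdown libraries and at 2.76 and 119 FPKM in control libraries, high in the control library in which KRT8-213 was high. Other KRT8 transcripts that share bases with KRT18 exons differed there: KRT8-210 was at 25.3 FPKM, its highest, and KRT8-205 at 0, its lowest. KRT8-203 and KRT8-215, which share no such bases, were at 383 and 352 FPKM there, also their highest.

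Processed copies were assigned little of the signal. Of 156 pseudogene transcripts of the members, 115 were at 0 in all libraries and 1 averaged above 1 FPKM. That was KRT8P3, at 2.96 and 3.05 FPKM in the knockdown libraries and 2.83 and 2.80 FPKM in control libraries, or 0.108% of summed KRT8. It is 97.1% identical to KRT8 over 1449 aligned bases, so reads of the pair cannot be assigned with certainty. KRT8P45 and KRT8P12 had means of 0.350 and 0.271 FPKM.

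The other keratins were scarce, and some of them lay apart between the groups. Of 46 other keratin genes, 24 were at 0 in all libraries and 6 were tested. In 3 of the 6 both knockdown libraries were above both controls, against 17.5% of all genes. In 1 both were below, against 31.4%. At an unadjusted p under 0.05, 3 were higher and 1 lower, where 12.3% of all genes tested passed in either direction, and 0 were called (0.273% of all genes). The median log2 fold change of the 6 was 0.21, beside -0.05 over all genes. KRT6A, a keratin of wounded and hyperproliferative epithelium and a partner of KRT17, was at 3.70 and 3.04 FPKM in the knockdown libraries and at 1.49 and 1.43 FPKM in control libraries (log2 fold change 0.82, SE 0.13, limma adjusted p = 0.249, unadjusted 0.00338). KRT13, a type I keratin of internal stratified epithelium, was at 3.17 and 2.57 against 1.33 and 1.64 FPKM (log2 fold change 0.64, limma adjusted p = 0.339). Neither gene's groups overlapped. KRT6A has near-identical copies in KRT6B and KRT6C, so its reads may have been split among them.

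KRT14, the type I keratin of basal cells, was at 2.03 and 1.76 FPKM in the knockdown libraries against 1.29 and 1.31 FPKM in control libraries (log2 fold change 0.33, limma adjusted p = 0.398). KRT81, a hair keratin of type II, was lower in both knockdown libraries, at 4.25 and 4.30 against 5.75 and 5.53 FPKM (log2 fold change -0.33, limma adjusted p = 0.394). KRT71 and KRT75, both known from the hair follicle, overlapped between groups at 0.972 to 1.18 and 0.793 to 1.13 FPKM. The defining markers of a stratified epithelium were near 0: KRT5, the basal partner of KRT14, did not exceed 0.0229 FPKM, TP63 did not exceed 0.00909 FPKM, and KRT1 and KRT4 were listed at 0. The 6 stratified markers, which include KRT13 and KRT14, summed to 5.22 and 4.33 FPKM in the knockdown libraries and to 2.64 and 2.96 FPKM in the controls.

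**Figure D4:**
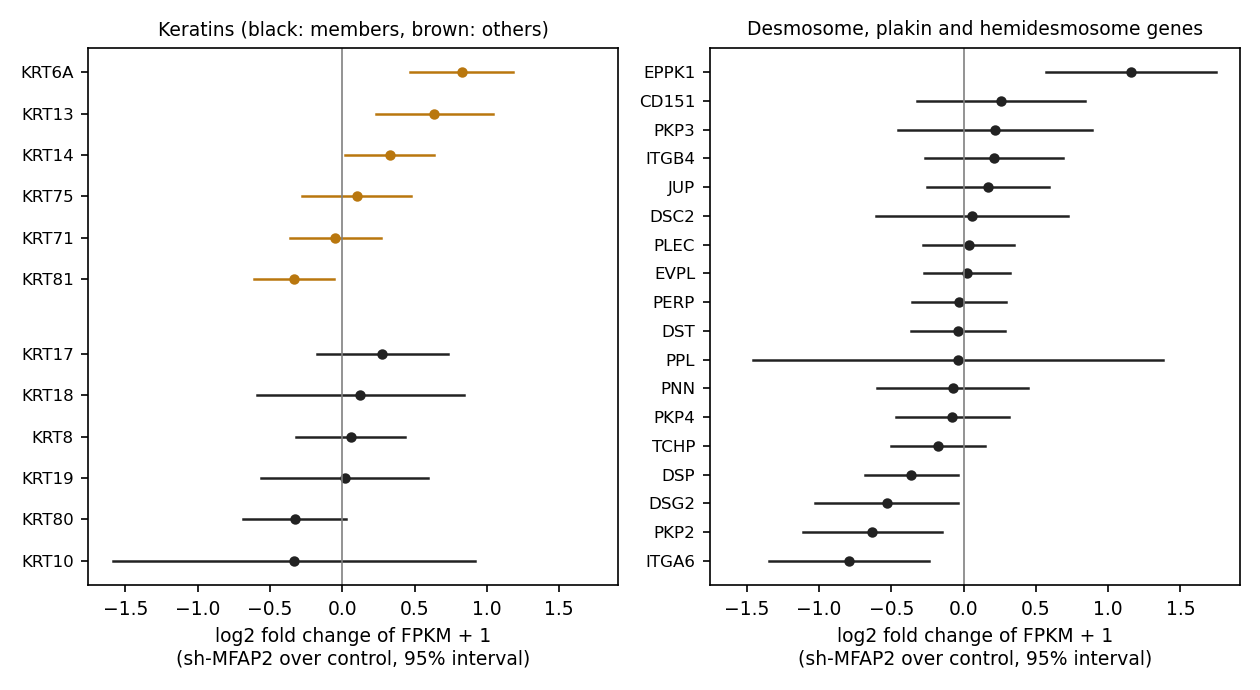
Log2 fold change of FPKM + 1 (sh-MFAP2 over control) with its 95% interval from limma for the tested members and other keratins on the left and for the tested anchoring genes on the right; the grey line marks no change. The 6 member intervals all include 0, KRT6A is highest among keratins at 0.82 and EPPK1 among anchors at 1.16, and none of the genes shown passed the adjusted threshold.

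Some genes that anchor keratin filaments were abundant, whereas 2 on the list were at 0 in all libraries. Of the 26 listed genes, mostly of desmosomes, plakins and hemidesmosomes, 18 were tested and 0 were called. At an unadjusted p under 0.05, 1 was higher and 4 were lower (12.3% of all genes passed). In 5 of the 18 both knockdown libraries were below both controls, near the 31.4% of all genes. Their median log2 fold change was -0.03. The most abundant were PERP, a desmosome membrane protein, at 92.5 to 103 FPKM, JUP, plakoglobin, at 79.2 to 103 FPKM, and CD151, a tetraspanin of hemidesmosomes, at 55.9 to 81.4 FPKM, and all 3 overlapped between groups. EPPK1, epiplakin, a plakin that binds keratin filaments, was at 5.02 and 3.26 FPKM in the knockdown libraries and at 1.25 and 1.30 FPKM in control libraries (log2 fold change 1.16, SE 0.21, limma adjusted p = 0.302, unadjusted 0.00585).

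The 4 lower anchoring genes, named after their values were seen, were all below both controls in both knockdown libraries. DSP, desmoplakin, which ties keratin to the desmosome, was at 35.4 and 34.2 against 42.9 and 47.2 FPKM (log2 fold change -0.36, limma adjusted p = 0.394). ITGA6, the hemidesmosome integrin chain, was at 27.5 and 20.4 against 38.8 and 45.0 FPKM (log2 fold change -0.79, limma adjusted p = 0.352). DSG2, a desmosomal cadherin, and PKP2, a plaque protein, had log2 fold changes of -0.53 and -0.63 (limma adjusted p = 0.397 and 0.371). PLEC and ITGB4, the plectin and integrin β4 that complete the hemidesmosome link, overlapped between groups at 17.7 to 19.7 and 18.2 to 25.2 FPKM.

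Of 15 genes whose proteins bind or modify keratins, all 15 were tested and 0 were called, with 1 lower at an unadjusted p under 0.05, where 12.3% of all genes passed. The median log2 fold change was -0.20. YWHAE, a 14-3-3 protein of the family that binds phosphorylated KRT18, was at 178 and 188 FPKM in the knockdown libraries and 205 and 216 FPKM in control libraries (log2 fold change -0.20, limma adjusted p = 0.5001). YWHAQ, another 14-3-3, was at 52.7 and 74.1 against 224 and 109 FPKM (log2 fold change -1.31, SE 0.42, limma adjusted p = 0.396, unadjusted 0.0399). HSPB1, a small heat shock protein found on keratin filaments, was at 85.3 and 28.0 against 129 and 127 FPKM (log2 fold change -1.36, limma adjusted p = 0.436). All 3 were below both controls in both knockdown libraries, as were 5 of the 15 in all, against 31.4% of all genes.

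Of 17 transcription factors and other regulators of epithelial genes 11 were tested, 0 were called and 1 was lower at an unadjusted p under 0.05, beside 12.3% of all genes in either direction. In 7 of the 11 both knockdown libraries were below both controls, where 31.4% of all genes were, and the median log2 fold change was -0.14. The list was not split by the direction in which its genes act. Among the 7, named after their values were seen, were HNF4A (log2 fold change -0.32, limma adjusted p = 0.398, unadjusted 0.0409) and SNAI1 (log2 fold change -0.53, limma adjusted p = 0.415). KLF5, a factor of gut epithelium, was at 10.5 and 40.0 FPKM in the knockdown libraries and 41.8 and 45.1 FPKM in control libraries, so its log2 fold change of -1.03 (SE 0.67, limma adjusted p = 0.556) rested on sh-MFAP2 library 1. ELF3, an epithelial ETS factor, was at 24.4 to 26.9 FPKM and CDX2, the intestinal homeobox factor, at 8.49 to 10.1 FPKM, both overlapping.

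Among 16 intermediate filament genes other than keratins, 6 were tested and 0 were called, with 1 of them higher and 1 lower at an unadjusted p under 0.05 (12.3% of all genes). The median log2 fold change was 0.13. LMNB1, a nuclear lamin, was at 42.6 and 33.6 FPKM in the knockdown libraries against 59.8 and 61.9 FPKM in control libraries (log2 fold change -0.67, limma adjusted p = 0.346). LMNA was at 106 to 160 FPKM and LMNB2 at 19.6 to 25.6 FPKM. VIM, the vimentin of mesenchymal cells, named after its values were seen, was at 3.06 and 2.87 against 2.32 and 1.91 FPKM (log2 fold change 0.35, limma adjusted p = 0.404, unadjusted 0.0490), far below KRT8.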

How the data were processed

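The 4 AGS RNA libraries fell into 2 per group by the labels. The authors deposited a gene table and a transcript table of normalised values, taken here as FPKM because non-whole values lay on steps of reads over length. The submitters' processing notes name the genome build hg38. The aligner, quantifier and strand setting are not given in the sources used here. All samples' columns matched labels, and no column of the authors' own comparisons was used.

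The 9873 genes averaging 1 FPKM or more were tested on log2(FPKM + 1) with limma 3.58.1 (lmFit, eBayes with trend) under R 4.3.3, with Benjamini-Hochberg adjustment over all of them. Calls needed p under 0.01 and adjusted p under 0.05. The 22312 transcripts with such a mean were fitted likewise. Fold changes on this scale understate those of low genes. Ratios were tested by exact two-sided permutation. Positions, lengths and sequences came from GENCODE 29. All 63 member transcripts were found there, 61 with the same length. The length implied by gene and transcript values equalled the union of annotated exons for 7 of 9 members, not for KRT10 (2124 against 2144 bases) and KRT17 (2537 against 3130). Python 3.11.15, pandas 2.3.3, numpy 2.4.6, scipy 1.17.1, Biopython 1.88 and matplotlib 3.10.9 were used.

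The members and lists were chosen with earlier results of these data known. Named were the 9 members, list genes with p under 0.01, the 3 highest per list, other keratins with a mean of at least 1 FPKM, the 3 highest pseudogenes, the highest transcript per member and the 3 genes nearest to KRT8 and KRT18. Others are said to have been named after their values were seen. The transcripts beside the highest one were chosen in the same way.

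Depth was inferred from steps between low values. Since 65.3% to 66.8% of those lay on whole steps (tolerance 0.05 of a step, 10% by chance), reads were not recovered, no count test was run, and no counting interval is given. The code was first tested on data with known answers. Alternatives were other pseudocounts, filters, normalisations, a replicate block and leaving out each library.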

Additional observations from a re-analysis of the deposited data

How the results depend on the processing

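The count of called members was 0 under every alternative run, and so was that of keratin transcripts. This says little of stability: the replicate block and the 4 fits without 1 library called 0 of all genes tested, and every transcript fit called 0 of all transcripts. Called anchors were 5 at an unadjusted p under 0.05 and 0 under the other alternatives. Members with groups that did not overlap were 4 of 9 with no filter, against 2 of 6, and 3 to 5 when 1 library was left out, with fewer libraries to overlap. Of all 23806 genes tested with no filter, 3809 did not overlap with the knockdown higher and 5052 with it lower. With 1 library left out these were 2608 to 3312 and 4126 to 4876, of 9842 to 9899 genes tested. The members' median log2 fold change ran from -0.20 to 0.10 over the libraries left out. Direction turned for 4 members with 1 library left out, where the log2 fold change ran from -0.049 (without control library 1) to 0.17 for KRT8, from -0.93 to 0.25 (without sh-MFAP2 library 1) for KRT10, and from -0.19 (without control library 2) to 0.44 for KRT18. For KRT19 it ran from -0.22 (without control library 2) to 0.26, with -0.01 without sh-MFAP2 library 1 and -0.034 after quantile normalisation. The cause was not tested. KRT17 stayed between 0.11 and 0.45 and KRT80 between -0.41 and -0.25 under all 12 alternatives. The log2 difference of the type II to type I ratio ran from -0.44 to 0.34.

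Over all genes tested the replicate numbers did not pair the libraries: deviations of same-numbered libraries correlated at -0.06. A correlation over so many genes cannot exclude a replicate effect on single ones, and the KRT18 transcripts did split by replicate number. A fit with the replicate number as a block called 0 members, 0 anchors and 0 keratin transcripts, and it also called 0 of all 9873 genes, against 27 (15 higher, 12 lower) without the block.

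With 2 libraries per group, the 95% intervals reach from 0.3326 to 1.89 times the control level for KRT10 and from 0.665 to 1.79 times for KRT18, and KRT20 and KRT23 rest on 10.9 to 37.2 inferred reads.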

Other observations

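Some genes of the lists followed the replicate number, as the KRT18 transcripts did. They were named after their values were seen. YWHAG, a 14-3-3 protein, was at 52.8 and 58.3 FPKM in the replicate 1 libraries of sh-MFAP2 and control and at 3.59 and 5.41 FPKM in their replicate 2 libraries. PPL, periplakin, was at 13.3 and 12.5 FPKM against 5.81 and 6.65 FPKM in the same order. CLDN4, a tight junction claudin, was at 47.1 FPKM in sh-MFAP2 library 1 and at 0.0151, 0.291 and 0.551 FPKM in sh-MFAP2 library 2 and control libraries 1 and 2, so 1 library set its mean. KRT23-201, the coding transcript of KRT23, was at 0.279 and 0.341 FPKM in the knockdown libraries and at 0.127 and 0.0918 FPKM in control libraries. In control library 2 a retained-intron transcript held 56.1% of KRT23, and in the other 3 it was listed at 0. These values were too low for a test at the 1 FPKM limit.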
